A study of Mus musculus with 16 samples.

Results

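The renin-angiotensin system genes Ren1, Agt, Ace, Agtr1a, Agtr1b, Atp6ap2, Enpep, Mme and Akr1b7 were followed across the cells of the mouse kidney. These 9 genes were taken by symbol from the 31053 genes of the deposited tables. The single-cell RNA-seq libraries came from BTBR ob/ob mice, which lack leptin and develop diabetic nephropathy (DN), and from BTBR +/+ mice (control), at 6 or 12 weeks of age and of both sexes. There were 16 libraries in 8 groups of 2, and thus 8 libraries for each genotype. Mice of both genotypes carried a podocyte reporter, made of a ROSA26 mTmG allele and a Cre transgene under a podocyte promoter. Each suspension came from both kidneys of 1 mouse after the papilla was removed and proximal tubules were depleted on a Percoll gradient, so shares of cells do not describe the intact kidney. The labels name glomerular cells, but markers of the tubule were present and 8 of the 16 named cell classes were tubular.

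Renin, encoded by Ren1, cleaves angiotensinogen, the product of Agt, to angiotensin I. Angiotensin-converting enzyme, encoded by Ace, turns angiotensin I into angiotensin II, which raises vascular tone and tubular sodium uptake through the receptors encoded by Agtr1a and Agtr1b. Aminopeptidase A (Enpep) and neprilysin (Mme) cleave angiotensin peptides, and Atp6ap2 encodes the (pro)renin receptor, which is also an accessory subunit of the vacuolar proton pump. In the kidney, renin is stored in juxtaglomerular cells, modified smooth muscle cells of the afferent arteriole that also express the aldo-keto reductase Akr1b7.

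The 250 bases before the RefSeq transcription start (build GRCm38.p6) are shown for 4 genes whose levels the results turn on, namely the pair that shared a cell class (Ren1 and Akr1b7) and the pair that differed between genotypes or sexes in proximal tubule cells (Agt and Ace). Capitals mark matches, on either strand, to 4 short motifs. TATAAA is a core promoter element found shortly before the start of many genes. The letters CCAAT form another common promoter box. TGACG is part of a cyclic AMP response element, and TGTTCT is part of a steroid receptor element.
Ren1, chr1:133350424-133350673, + strand: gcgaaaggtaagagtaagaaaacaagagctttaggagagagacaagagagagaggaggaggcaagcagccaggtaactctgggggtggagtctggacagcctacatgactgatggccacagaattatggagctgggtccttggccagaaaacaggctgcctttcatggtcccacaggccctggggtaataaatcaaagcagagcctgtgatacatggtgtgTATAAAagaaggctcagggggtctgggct
Akr1b7, chr6:34412112-34412361, + strand: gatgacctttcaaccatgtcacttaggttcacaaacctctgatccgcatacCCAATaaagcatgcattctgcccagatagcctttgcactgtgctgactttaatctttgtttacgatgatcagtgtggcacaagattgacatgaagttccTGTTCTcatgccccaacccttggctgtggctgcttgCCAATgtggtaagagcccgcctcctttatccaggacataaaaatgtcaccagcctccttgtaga
Agt, chr8:124569707-124569956, - strand: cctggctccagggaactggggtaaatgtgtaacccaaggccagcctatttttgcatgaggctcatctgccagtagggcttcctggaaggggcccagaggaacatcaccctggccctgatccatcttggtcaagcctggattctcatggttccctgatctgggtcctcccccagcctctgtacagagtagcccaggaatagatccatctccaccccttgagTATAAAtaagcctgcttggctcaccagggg
Ace, chr11:105967698-105967947, + strand: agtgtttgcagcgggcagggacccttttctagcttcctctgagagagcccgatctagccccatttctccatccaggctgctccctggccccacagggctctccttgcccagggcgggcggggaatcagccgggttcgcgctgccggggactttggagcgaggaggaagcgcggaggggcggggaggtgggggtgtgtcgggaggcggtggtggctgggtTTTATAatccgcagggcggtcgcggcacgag

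TATAAA began 29 bases before the start of Ren1 and 30 bases before that of Agt, and its reverse complement began 31 bases before that of Ace. A match to TATAAA was held by 12.4% of all 32851 promoter windows of this length. The Akr1b7 window held 2 CCAAT matches, found in 33.8% of windows, and 1 TGTTCT match, found in 16.1%. None of the 4 windows held TGACG, which was in 17.8% of windows. A match describes the letters and is not a binding site, and the BTBR strain may differ from the reference. Of the 9 genes, 8 had a RefSeq window in the table used.

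All 9 genes matched the GENCODE annotation of mm10 by identifier and are protein-coding. Ren1 lies at chr1:133350510-133360325 (+ strand), Agt at chr8:124556534-124569706 (- strand), Ace at chr11:105967945-105989964 (+ strand), Agtr1a at chr13:30336441-30382867 (+ strand) and Agtr1b at chr3:20314473-20367177 (- strand). Atp6ap2 lies at chrX:12587801-12617049 (+ strand), Enpep at chr3:129269175-129332720 (- strand), Mme at chr3:63241537-63386030 (+ strand) and Akr1b7 at chr6:34412334-34423142 (+ strand). The GENCODE starts of Ren1, Akr1b7 and Ace fall inside the RefSeq windows printed for them. The gene list held no Ren2 row, so reads of that near-identical gene, which some mouse strains carry, could not be told from Ren1, and reads shared by the paralogues Agtr1a and Agtr1b are likewise uncertain.

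Of 94436 cells that passed the first filters, 85653 were kept and 64919 of them fell in 16 classes named from markers. The remaining 20734 cells lay in 12 clusters that were left unnamed. Levels are given as CPM, the UMIs (counted molecules) of a gene per 1000000 UMIs of the class in a library, as mean ± SD over the libraries that held at least 10 cells of the class. Replicate 1 of each female group formed a batch of 4 shallow libraries with a second list of cell barcodes, called the smaller batch, and the other 12 libraries formed the larger batch. The smaller batch held both genotypes and ages. Its libraries had 10510855 to 21728793 UMIs, and those of the larger batch 83410397 to 125551519. Before filters, median UMIs per barcode were 2062 to 3706 in the smaller batch. In the larger batch they were 6071 to 10790, except in control male replicate 2 at 6 weeks. That library had a median of 698 over 10879 barcodes.

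Each gene had its own place in the kidney. Ren1 and Akr1b7 were highest in the smooth muscle and renin class, Agt in descending limb of the loop of Henle (dLOH) cells, Ace in immune and arterial endothelial cells (EC), and Agtr1a in mesangial cells. Atp6ap2 was highest in type B and type A intercalated cells (IC-B and IC-A), Enpep in podocytes and Mme in IC-A cells. Neighbouring classes in the order of levels were compared within libraries by an exact two-sided sign-flip permutation test on log2(CPM + 1), adjusted over all 135 neighbour pairs. Of these, 26 passed an adjusted p of 0.05, so most neighbours did not differ beyond their spread.

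**Figure D1:**
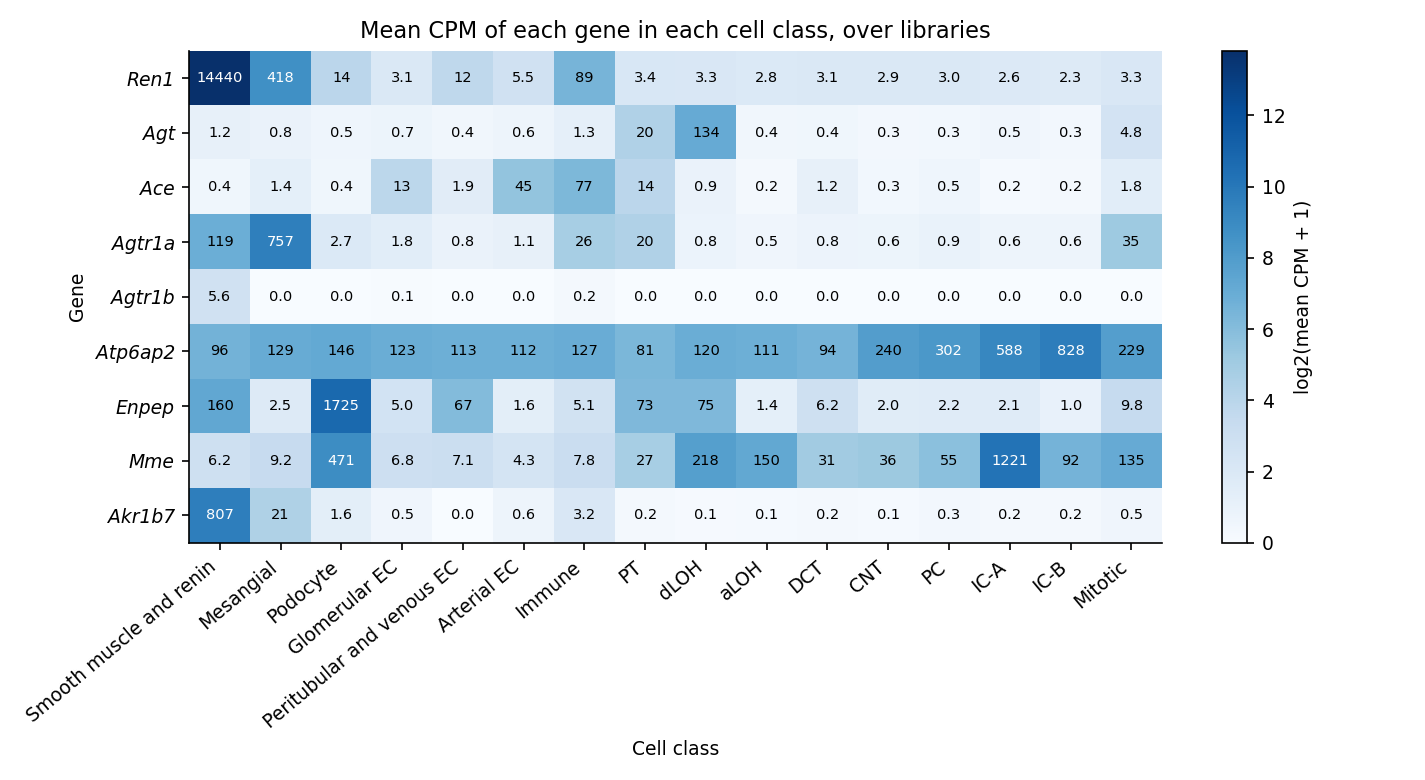
Mean CPM of the 9 genes (rows) in the 16 named cell classes (columns), over the libraries with at least 10 cells of the class, coloured by log2(mean CPM + 1). Ren1 and Akr1b7 peak in the smooth muscle and renin class, Agtr1a in mesangial cells and Enpep in podocytes, while Atp6ap2 is at 80.5 CPM or more in every class.

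Ren1 in the smooth muscle and renin class stood at 14440 CPM ± 9012 (SD, n = 16), and this class held 93.76% of the Ren1 UMIs of kept cells. It lay above the mesangial class, the next in order at 418 CPM ± 1147, in 16 of 16 libraries (adjusted p = 4.12e-04, exact permutation test). The level was uneven within the class. Of its 1805 cells, 981 had no Ren1 UMI, 240 gave 1 to 10% of their UMIs to Ren1 and 46 gave 10% or more, up to 33.51% in a single cell. One sub-cluster of 160 cells, picked as the one with the highest Ren1, held 80780 CPM ± 31490 in the 7 libraries that had at least 10 of its cells. Its leading genes held Gja5, a gap junction protein of renin cells, beside Ren1 and Akr1b7. Another sub-cluster of 261 cells was led by tubule genes such as Fxyd4 and Kap, with a median depth of 1456 UMIs against 6250 in the class.

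Akr1b7 had the same leading class, with 807 CPM ± 385 there against 20.7 CPM ± 33.7 in mesangial cells (higher in 16 of 16 libraries, adjusted p = 4.12e-04, exact permutation test). Over the 16 class means of log2(CPM + 1), it was the gene most like Ren1 among 12757 genes, with Pearson's r of 0.995, followed by Slc38a11 (0.993) and Aspn (0.991). These points share libraries and depth, and r is a description. Slc38a11 (0.997), Ren1 and Jph2 (0.994) were most like Akr1b7.

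Agt, the substrate of renin, was at 134 CPM ± 49.05 in dLOH cells and 20.3 CPM ± 16.01 in proximal tubule (PT) cells, dLOH being higher in 16 of 16 libraries (adjusted p = 4.12e-04, exact permutation test). Over all libraries pooled, PT cells held 47.06% of the Agt UMIs, dLOH cells 19.32% and unnamed clusters 31.08%. As means over libraries these shares were 38.38, 31.55 and 26.74%. Gm853 (0.974) was among the 3 genes with the class profiles most like that of Agt.

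Ace was at 76.95 CPM ± 42.3 in immune cells and 45.4 CPM ± 25.3 in arterial EC, a pair that did not differ beyond its spread (adjusted p = 0.126, exact permutation test). Arterial EC exceeded glomerular EC, at 13.4 CPM ± 5.79, in 16 of 16 libraries (adjusted p = 4.12e-04, exact permutation test). PT cells stood at 14.2 CPM ± 12.2. Fam78a, Plcl2 and Csf2rb were most like Ace (r = 0.902, 0.899 and 0.889).

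Agtr1a, the main angiotensin II receptor gene, was at 757 CPM ± 177 in mesangial cells, 119 CPM ± 39.8 in the smooth muscle and renin class and 19.8 CPM ± 4.14 in PT cells. The first exceeded the second in 16 of 16 libraries (adjusted p = 4.12e-04, exact permutation test). Mesangial cells held 62.95% of its UMIs. Gucy1a1 (0.957), Abcc9 (0.952) and Sfrp2 (0.938) had the most similar class profiles. Its paralogue Agtr1b gave 77 UMIs in all kept cells, of which 68 were in the smooth muscle and renin class. This class exceeded the next, immune cells, in 15 of 16 libraries (adjusted p = 4.85e-04, exact permutation test), and the gene did not pass the filter on low counts for the edgeR fits in any class.

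Atp6ap2 was found in every class, from 80.5 CPM ± 9.59 in PT cells to 588.5 CPM ± 90.4 in IC-A and 828 CPM ± 97.8 in IC-B cells, the acid-base cells of the collecting duct. IC-B exceeded IC-A in 16 of 16 libraries (adjusted p = 4.12e-04, exact permutation test). The profiles of Guca2a (0.938), Wscd2 (0.937) and Fgf12 (0.932) were closest to it.

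Enpep was at 1725 CPM ± 319 in podocytes (n = 15) against 160.1 CPM ± 34.1 in the smooth muscle and renin class, and was higher in 15 of 15 libraries (adjusted p = 4.85e-04, exact permutation test). Nfu1, Kcnj12 and Stc2 were most like it (0.833, 0.816 and 0.790). Mme was at 1221 CPM ± 260.5 in IC-A cells, 471 CPM ± 139.5 in podocytes, 218 CPM ± 68.3 in dLOH and 150.4 CPM ± 42.0 in ascending limb (aLOH) cells. Each of these steps passed the exact permutation test (adjusted p = 4.85e-04, 4.85e-04 and 0.00114). Tdrkh (0.930) and Sh3bgrl2 (0.8999) came closest to Mme.

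DN and control libraries were compared in each class with edgeR's quasi-likelihood test on UMIs summed per library, with Benjamini-Hochberg adjustment over all genes tested in the class. Of the 9 genes, 8 passed the filter on low counts in at least 1 class, which gave 63 pairs of gene and class at 6 weeks and 61 at 12 weeks. At 6 weeks 1 pair rose in DN and 0 fell, where 0.0658% of all gene and class pairs were called. At 12 weeks 1 pair rose and 0 fell, where 0.356% were called. Both were Agt in PT cells. The median log2 difference over the tested pairs was 0.09 at 6 weeks and 0.05 at 12 weeks, against -9.07e-04 and -3.29e-04 over all genes. A further fit took libraries of the same sex, age and replicate number as a block, a pairing that the sample titles do not state. With this block 3 pairs rose and 1 fell at 6 weeks (background 1.16%), and 5 rose and 2 fell at 12 weeks (background 3.05%).

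Agt in PT cells was higher in DN at both ages. At 6 weeks the 4 control libraries held 8.91, 16.1, 9.88 and 9.14 CPM (females, then males) and the 4 DN libraries 23.8, 64.7, 29.7 and 24.9 CPM. At 12 weeks controls held 4.40, 6.62, 6.785 and 6.21 CPM and DN libraries 14.7, 29.0, 38.6 and 30.9 CPM. The genotypes did not overlap at either age. The log2 difference was 1.60 ± 0.26 (SE) at 6 weeks (edgeR, adjusted p = 0.0151) and 2.17 ± 0.27 at 12 weeks (edgeR, adjusted p = 0.00300), where 0.162% and 0.178% of the genes tested in PT cells rose. The difference between these effects was 0.57 and not called (edgeR, adjusted p = 0.9999). At 6 weeks the call was lost without control female replicate 2, control male replicate 2 or DN male replicate 1 (edgeR, adjusted p = 0.0542, 0.0719 and 0.104). At 12 weeks it held without each library in turn. Within the larger batch alone the log2 difference was 1.64 at 6 weeks and 2.27 at 12 weeks (edgeR, adjusted p = 0.0156 and 0.00445).

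**Figure D2:**
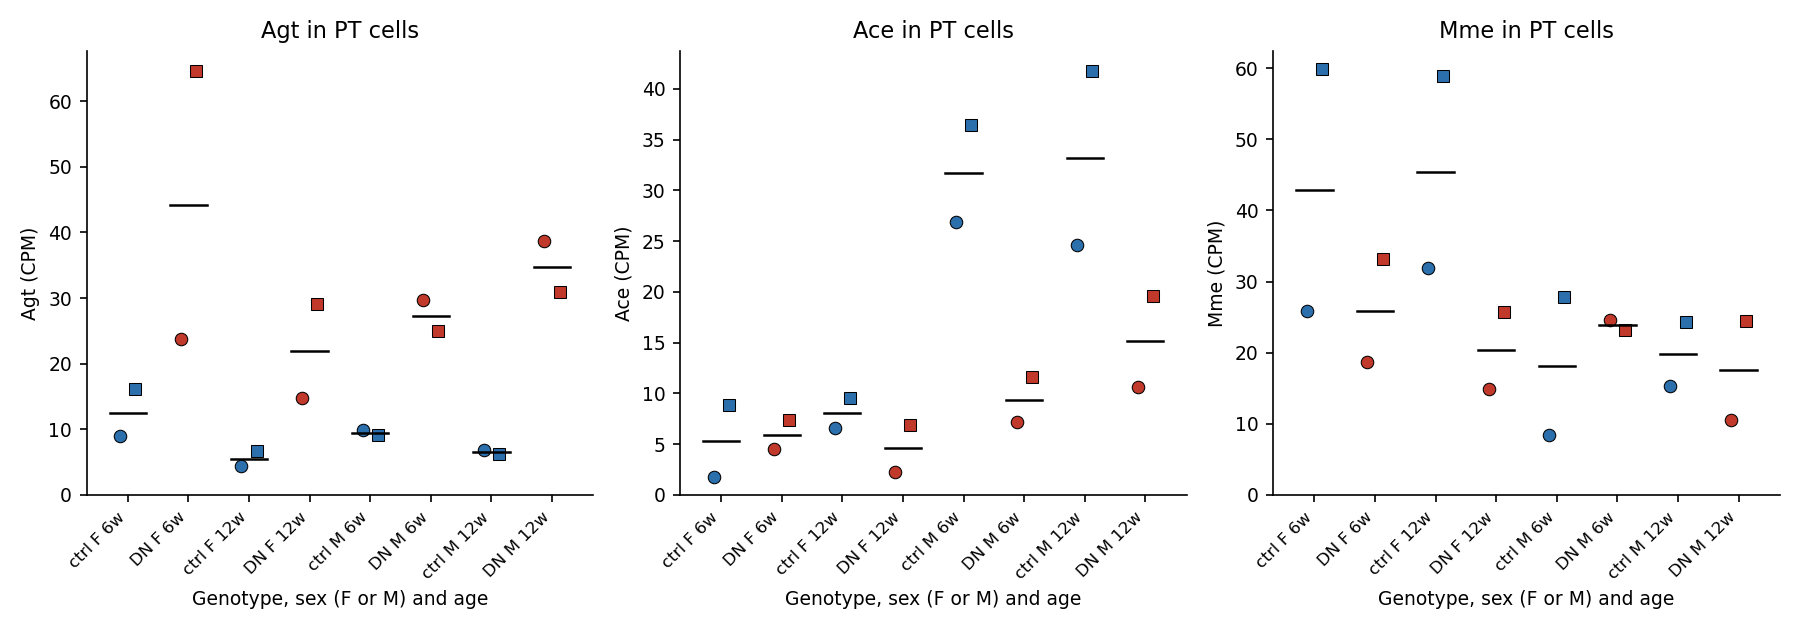
CPM of Agt, Ace and Mme in PT cells, 1 point per library (blue control, red DN, circles replicate 1, squares replicate 2), by genotype, sex and age, with lines at the group means. All DN libraries lie above the controls of their age for Agt, and Ace is highest in the 4 control male libraries.

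In females the difference in Agt, averaged over ages, was 1.86 ± 0.30 (edgeR, adjusted p = 0.0558, and 3.88e-05 with the replicate block). In males it was 1.90 ± 0.27 (adjusted p = 0.00286). These fits by sex were added after seeing the data. The difference was also seen inside the clusters that made up the PT class. In the cluster led by Snhg11, Slc5a12 and Slc5a2, the latter pair being transporters of the early proximal tubule, Agt was at 7.57 CPM ± 6.70 in control and 25.1 ± 5.50 in DN (n = 8 each), higher in 7 of 8 pairs. In the clusters led by Nat8f6, Cox6a2 and Bhmt it was at 11.5, 3.90 and 9.95 CPM in control and 39.95, 19.9 and 37.85 CPM in DN, higher in 8 of 8 pairs in each. One further PT cluster of 448 cells, led by Slco1a1 and Slc7a13, came 98.88% from control male replicate 2 at 6 weeks.

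Of 7 genes of proximal tubule segments, Slc22a7, a transporter of the last segment, was called, with log2 differences of -6.94 at 6 weeks and -7.005 at 12 weeks (edgeR, adjusted p = 0.00113 and 5.19e-04). Slc7a13 of the same segment stood at -2.56 and -1.83 (adjusted p = 0.0641 and 0.194), and the other 5 were not called. Among these 5, Slc6a18, also of the last segment, stood at 0.0016 and -0.32. Slc22a7 and Slc7a13 were higher in males, by 4.86 and 9.04 (edgeR, adjusted p = 4.80e-05 and 1.13e-08), and Slc6a18 was lower, at -0.93 (adjusted p = 0.00199). The 6 dLOH markers, which mark the class with the highest Agt, summed to 126 to 241 CPM in control and 142 to 226 CPM in DN PT cells. None was at 0, and 0 of the 4 tested were called at either age. Most of the sum was Aqp1, with means of 152 CPM in control and 132 CPM in DN. Cryab was at 21.3 and 39.6 CPM, and the others were at 2.15 CPM or less. Aqp1 was lower in DN and each of the other markers was higher. The part of segment make-up in the Agt difference was not tested. In dLOH cells Agt was at 131 ± 76.4 CPM in control and 127 ± 38.1 in DN at 6 weeks, and 125 ± 58.0 and 154 ± 25.7 at 12 weeks (n = 4 each). The log2 differences were -0.05 ± 0.38 and 0.49 ± 0.38, not called (edgeR, adjusted p = 0.9999 and 1).

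Ren1 was examined first over all kept cells of a library. The control libraries held 60.5 to 348 CPM and the DN libraries 114.5 to 540.4 CPM, with means of 131.5 ± 98.0 and 326 ± 168.5 (SD, n = 8 each). DN was higher in 8 of 8 pairs of the same sex, age and replicate number, though the ranges overlapped. The mean difference of log2(CPM + 1) was 1.38, with p = 0.00154, the smallest that permuting genotype within sex and age allows (exact two-sided permutation test, adjusted p = 0.01235 over 10 comparisons of renin cells). It was 1.21 at 6 weeks (p = 0.0857, exact) and 1.54 at 12 weeks (p = 0.0286, exact). At single ages genotype was permuted over 70 arrangements without regard to sex, and 0.0286 is the smallest p these allow. The difference was 1.70 within the larger batch (p = 0.0139, exact, the smallest its permutations allow) and 0.41 over the 4 libraries of the smaller one. In such sums, more renin cells and more Ren1 per cell cannot be told apart.

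**Figure D3:**
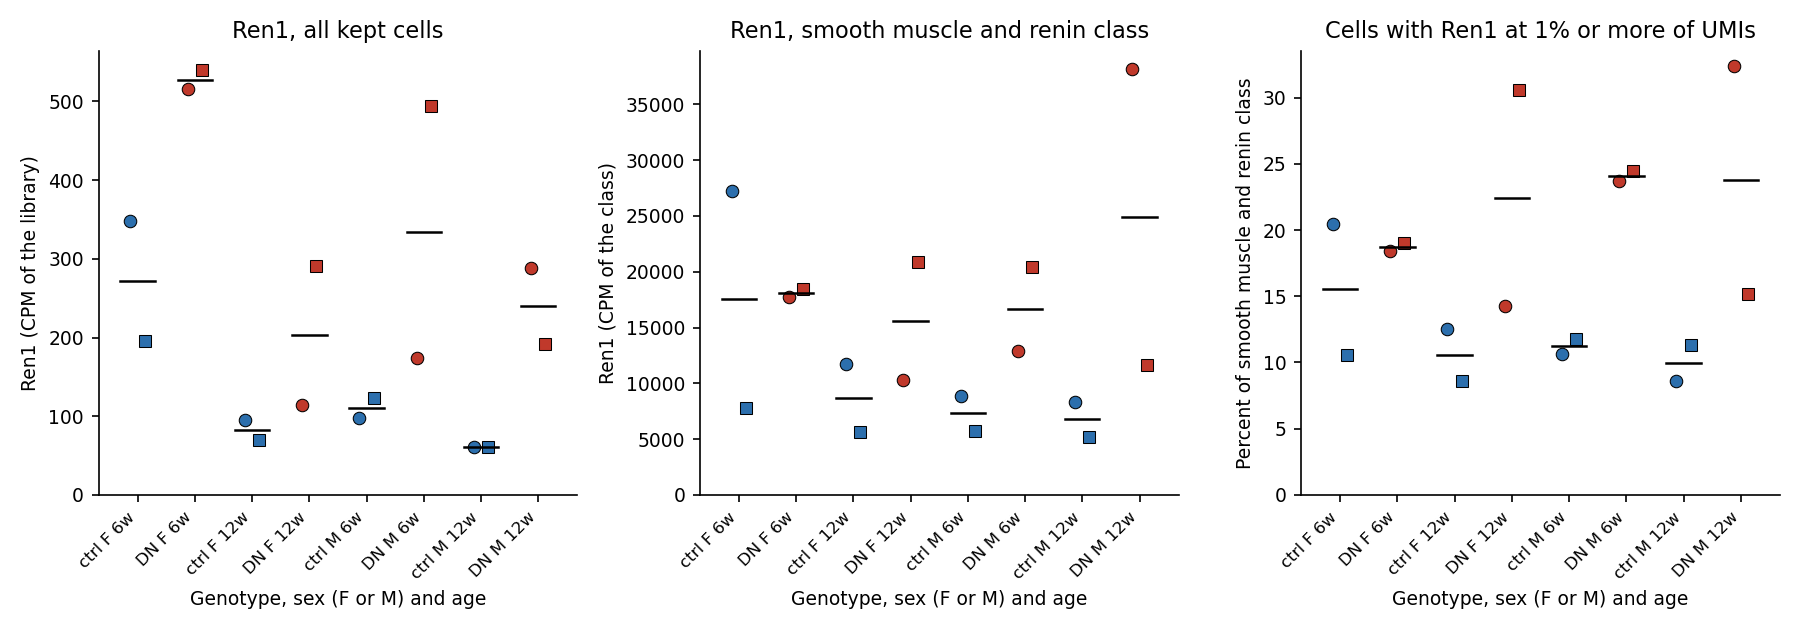
Ren1 by library (blue control, red DN, circles replicate 1, squares replicate 2, lines at group means), as CPM of all kept cells, as CPM of the smooth muscle and renin class, and as the percent of that class with Ren1 at 1% or more of UMIs. DN lies above its control pair in 8 of 8 pairs in the first panel and 7 of 8 in the last.

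The smooth muscle and renin class made up 2.11 ± 1.22% of kept cells in control and 2.175 ± 0.880% in DN (p = 0.909, exact permutation test). The high-Ren1 sub-cluster made up 0.186 ± 0.1265% and 0.210 ± 0.0774% (p = 0.556, exact permutation test). Cells with Ren1 at 1% or more of their UMIs made up 0.256 ± 0.135% of kept cells in control and 0.514 ± 0.219% in DN (p = 0.00617, exact permutation test, adjusted p = 0.01235, higher in 7 of 8 pairs). Of these 311 cells, 286 were in the smooth muscle and renin class and 122 in the sub-cluster. Because Ren1 itself sets the line at 1%, shares of such cells cannot tell more renin cells from more Ren1 per cell.

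Within the smooth muscle and renin class, 20.45, 10.6, 10.7 and 11.8% of cells lay at or above 1% in control libraries at 6 weeks (females, then males) and 18.4, 19.0, 23.7 and 24.5% in DN libraries. At 12 weeks the shares were 12.5, 8.60, 8.60 and 11.3% in control and 14.3, 30.6, 32.35 and 15.15% in DN. The groups did not overlap at 12 weeks, and at 6 weeks the control female replicate 1 library lay among the DN values. Over both ages the means were 11.8 ± 3.76% and 22.25 ± 6.75% (p = 0.00617, exact permutation test, adjusted p = 0.01235). The difference was 14.0 percentage points in the larger batch (p = 0.0139, exact, the smallest possible there) and -0.139 over the 4 libraries of the smaller one. With lines at 0.5% and 2% of UMIs it was 10.2 and 7.56 points (p = 0.00463 and 0.00463, exact). Of the class, 89 cells lay between 0.5 and 1% and 78 between 1 and 2%.

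Ren1 CPM in the class was 27280, 7782, 8891 and 5716 in control and 17700, 18500, 12880 and 20400 in DN libraries at 6 weeks. At 12 weeks it was 11730, 5616, 8326 and 5213 in control and 10300, 20870, 38160 and 11640 in DN. The genotypes overlapped at both ages. The log2 difference was 0.63 ± 0.42 at 6 weeks and 1.425 ± 0.42 at 12 weeks, neither called (edgeR, adjusted p = 1 and 0.229). Leaving out 1 library gave 0.42 (without control male replicate 2) to 1.235 (without control female replicate 1) at 6 weeks, and 0.89 (without DN male replicate 1) to 1.81 (without control female replicate 1) at 12 weeks, none of them called. With the replicate block it was called at 12 weeks, at 1.37 (edgeR, adjusted p = 4.29e-04), and in the larger batch alone it was 1.97 (adjusted p = 0.00164).

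Outside the sub-cluster, in the other 1645 cells of the class, Ren1 was at 2341 ± 661 CPM in control and 6246 ± 2057 in DN at 6 weeks, and at 3102 ± 1479 and 8452 ± 6433 at 12 weeks (n = 4 each). The log2 differences of 1.43 ± 0.44 and 1.53 ± 0.45 were not called (edgeR, adjusted p = 0.817 and 0.314), but were called with the replicate block, at 1.465 and 1.29 (adjusted p = 0.00293 and 0.0139). At 12 weeks the difference outside the sub-cluster was 0.91 without DN male replicate 1, and 2.01 and called without DN female replicate 1 (edgeR, adjusted p = 0.0111). Inside the sub-cluster the differences were 0.53 ± 0.40 at 6 weeks and 0.74 ± 0.46 at 12 weeks (edgeR, adjusted p = 0.997 and 0.728). The fit held the 14 libraries with at least 5 sub-cluster cells. These were 4 control and 4 DN libraries at 6 weeks, and 3 and 3 at 12 weeks. At 12 weeks the control female library left was of the larger batch and the DN female library left was of the smaller batch. Whether the effect differed between cells inside and outside the sub-cluster was not tested. The 8 mesangial markers in the class summed to 1213 to 1937 CPM in control and 1256 to 2064 CPM in DN, none was at 0, and 0 of 8 were called at either age.

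Akr1b7 in the smooth muscle and renin class was at 827 ± 133 CPM in control and 640.4 ± 33.9 in DN at 6 weeks, and at 702 ± 179.7 and 1060 ± 742 at 12 weeks (n = 4 each). The log2 differences were -0.32 ± 0.32 and 0.61 ± 0.32, not called (edgeR, adjusted p = 1 and 0.756). With the replicate block, Akr1b7 was called lower in DN at 6 weeks outside the sub-cluster (log2 difference -0.61, edgeR, adjusted p = 0.0272) and higher in DN at 12 weeks inside it (1.475, edgeR, adjusted p = 0.00895). Without the block the latter was 0.63 ± 0.53 (edgeR, adjusted p = 0.7985). At 12 weeks control female replicate 1 and DN female replicate 2 held 4 sub-cluster cells each and were left out. No female pair was then complete. The blocked difference inside the sub-cluster at 12 weeks therefore rests on the pairs of male replicates 1 and 2 alone.

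Ren1 outside its own cells was then set against the level that free RNA would give. Droplets take up RNA shed by broken cells, which lends an abundant transcript to cells that do not make it. Loop of Henle cells are not known to make renin, whereas cells of the connecting tubule and collecting duct are known to make some. In the 8 tubule classes 2.17 to 3.38% of cells had a Ren1 UMI, at median depths of 6102 to 19157 UMIs. With every cell thinned to 500 UMIs, below which no kept cell of a named class lay, 31.0% of smooth muscle and renin cells had a Ren1 UMI, 1.76% of mesangial cells, and 0.08055 to 0.497% of cells in the tubule classes. These shares pool the cells of all libraries. By library the share over all tubule cells ran from 0 to 1.1%. The highest was control male replicate 2 at 6 weeks, which stood at 0.188% when thinned to 1000 UMIs. Connecting tubule cells, at 0.267%, and principal cells (PC) of the collecting duct, at 0.245%, lay between ascending and descending loop cells, at 0.193 and 0.497%. This order depended on the setting. Thinned to 1000 UMIs, with cells under that depth left out, connecting tubule cells and PC stood at 0.331 and 0.340%. They lay above ascending and descending loop cells at 0.232 and 0.269%. Without doublet removal, at 500 UMIs, they stood at 0.294 and 0.288% against 0.199 and 0.236%. Tubule shares are taken as the background range. Renin made in small amounts in connecting tubule cells or PC could not be told apart from it. No tubule cell had Ren1 at 1% or more of its UMIs. Thinned to 500 UMIs, shares were 0.508% in arterial EC, 0.344% in peritubular and venous EC, 0.1465% in glomerular EC and 0.170% in podocytes. Immune cells stood at 1.31% (1.96% in control and 0.856% in DN), above the range of the tubule classes, and 3 of 992 held Ren1 at 1% or more of UMIs. Thinned to 1000 UMIs, immune cells stood at 0.9585%, where the tubule share by library ran up to 1.01%. The 8 smooth muscle and renin markers summed to 3.45 to 229 CPM in control and 16.75 to 2720 CPM in DN immune cells, none was at 0, and their part in immune Ren1 was not tested.

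Ren1 in tubule cells was then compared with that of the renin cells over libraries. Across the 12 libraries of the larger batch, Ren1 CPM in tubule cells and the Ren1 UMIs of the smooth muscle and renin class per 1000000 UMIs of the library had Pearson's r of 0.809 (p = 0.00183, adjusted p = 0.00506) and Spearman's rho of 0.832 (p = 0.00144, adjusted p = 0.00750, permutation tests, 12 relations computed). Without the 2 libraries farthest from the median r was 0.685. By class r was 0.870 in PC but 0.517 in distal convoluted tubule cells (adjusted p = 0.09275) and 0.575 in glomerular EC (adjusted p = 0.0705, permutation tests), and without the 2 farthest libraries these last were 0.170 and 0.339. In mesangial cells r was 0.728 (adjusted p = 0.0134, permutation test). Within genotype r over all tubule cells was 0.519 in control (p = 0.289) and 0.798 in DN (p = 0.0587, permutation tests, n = 6 each), and neither passed. Tubule Ren1 was 1.70 ± 1.31 CPM in control and 4.04 ± 3.04 in DN (p = 0.0324, exact permutation test, adjusted p = 0.0463).

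**Figure D4:**
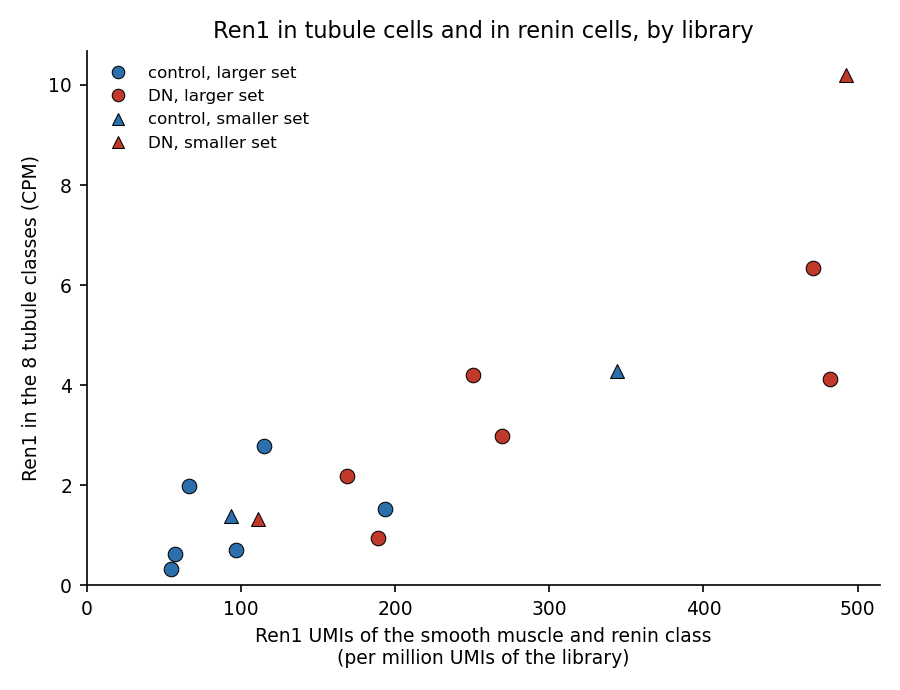
Ren1 CPM in the 8 tubule classes against Ren1 UMIs of the smooth muscle and renin class per 1000000 UMIs of the library, 1 point per library (blue control, red DN, circles the larger batch, triangles the smaller batch). Across the larger batch, libraries in which Ren1 UMIs of this class are a larger share of all UMIs have more Ren1 in tubule cells. Within either genotype alone the correlation did not pass.

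In PC Ren1 was at 2.06 ± 0.8215 CPM in control and 5.79 ± 2.94 in DN at 6 weeks, and at 1.09 ± 0.686 and 2.945 ± 1.915 at 12 weeks (n = 4 each). The log2 differences of 1.54 and 1.68 were not called (edgeR, adjusted p = 0.901 and 0.330), but were called with the replicate block (adjusted p = 0.0312 and 0.0154). On another measure, the mean difference of log2(CPM + 1), whole libraries stood at 1.21 at 6 weeks and 1.54 at 12 weeks. On that measure the 8 tubule classes together stood at 0.99 and 0.65. Tubule values were low, at 0.322 to 10.2 CPM, where the added 1 shrinks such differences more than in whole libraries. The sizes can therefore not be compared. Mean tubule Ren1 was 2.32 CPM in control and 5.715 in DN at 6 weeks, and 1.08 and 2.365 at 12 weeks. The part of free RNA in the PC difference was not tested.

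The mesangial class held Ren1 at 1.08 to 244 CPM in control and 117 to 4662 in DN libraries at 6 weeks, and at 5.96 to 54.7 and 36.6 to 717 at 12 weeks. The genotypes overlapped at both ages. The log2 differences of 3.27 ± 1.65 and 3.50 ± 1.42 were not called (edgeR, adjusted p = 0.746 and 0.302), but passed with the replicate block (adjusted p = 0.0433 and 0.0151). Only 17 of 4089 mesangial cells had Ren1 at 1% or more of UMIs, 15 of them from DN. The 8 smooth muscle and renin markers summed to 312 to 738 CPM in control and 778 to 1747 CPM in DN mesangial cells. None was at 0, and 2 of the 5 tested were called at 6 weeks and 3 at 12 weeks, in either direction. Rgs5 was called at neither age without the block. The 3 calls at 12 weeks therefore include a marker other than Acta2, Tagln and Rgs5. The sum rose through Acta2 (means of 47.2 CPM in control and 297 CPM in DN), Tagln (21.2 and 116) and Rgs5 (247 and 486.5). Myh11 (2.77 and 1.93), Notch3 (136 and 119) and Mustn1 (67.6 and 45.7) were lower in DN. Cnn1 and Rergl were at 0.689 CPM or less. The part of these markers in the Ren1 difference was not tested. In podocytes the fall called at 12 weeks with the block (-3.48, edgeR, adjusted p = 1.31e-04) stood beside 1 library that lay apart, control male 12 weeks replicate 1, at 157 CPM, and 1 of 1174 podocytes held Ren1 at 1% or more of UMIs. A single podocyte held 366 of the 406 Ren1 UMIs of all podocytes, so podocyte totals of Ren1 do not describe podocytes at large.

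Ace in PT cells differed by sex. Control females held 1.78, 8.845, 6.60 and 9.54 CPM (6 weeks, then 12) and control males 26.85, 36.5, 24.65 and 41.75 CPM. DN females held 4.51, 7.38, 2.28 and 6.93 CPM and DN males 7.16, 11.6, 10.6 and 19.6 CPM. Control males lay above all other libraries, and DN males overlapped with females. Over both genotypes females held 5.98 ± 2.87 CPM and males 22.35 ± 12.5 (n = 8 each). The fit between the sexes held a term for the batch, which these CPM values do not take into account. Its log2 difference was 1.45 ± 0.26 (edgeR, adjusted p = 0.00141), where 16.3% of genes tested in PT cells were higher and 11.6% lower in males. Within the larger batch alone the log2 difference was 1.44 (edgeR, adjusted p = 0.00438). Of 67 pairs of member and class, 1 was called higher in males, this one, and 1 lower, Mme in PT cells. Over all classes, 2.5% of pairs were called between the sexes.

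With both sexes fitted together, the log2 difference of Ace in PT cells between DN and control was -1.16 ± 0.37 at 6 weeks and -1.04 ± 0.35 at 12 weeks, not called (edgeR, adjusted p = 0.406 and 0.416), though the first was called with the block (-1.37, adjusted p = 0.0342). In males it was -1.53 ± 0.27 (edgeR, adjusted p = 0.0116), where 0.864% of genes tested in PT cells fell. The call was lost without control male replicate 2 at 12 weeks, DN male replicate 1 at 6 weeks or DN male replicate 1 at 12 weeks (edgeR, adjusted p = 0.0619, 0.0809 and 0.0836). In females it was -0.40 ± 0.33 (adjusted p = 0.9998), and 0.45 without control female replicate 2 at 6 weeks. The difference between the sexes in this effect was -1.13 ± 0.42 and not called (edgeR, adjusted p = 1), but was called with the replicate block (-1.14, adjusted p = 0.0289), where 1.91% of genes were called.

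Ace was unevenly spread over the PT clusters. It was at 29.5 CPM ± 19.1 in control and 15.8 ± 10.3 in DN in the Nat8f6 cluster, where DN was higher in 0 of 8 pairs, and at 19.2 ± 14.8 and 12.1 ± 6.86 in the Bhmt cluster. In the Snhg11 cluster it was at 2.41 ± 2.44 and 2.31 ± 1.41. In the Cox6a2 cluster it was at 3.51 ± 6.925 and 0.962 ± 0.862. With cells pooled over libraries, these 4 clusters, in this order, made up 22.86, 17.16, 24.01 and 29.4% of control and 27.43, 23.71, 29.91 and 18.73% of DN PT cells. A single library, control male replicate 2 at 6 weeks, gave 27.9% of all cells of the Cox6a2 cluster. The Slco1a1 cluster, nearly all from control male replicate 2 at 6 weeks, held Ace at 41.0 CPM in that library and made up 6.466% of control and 0.0224% of DN PT cells. The part of these shares in the Ace difference was not tested. In glomerular EC the log2 difference of Ace between DN and control was 0.84 ± 0.29 at 6 weeks (edgeR, adjusted p = 0.9999), in arterial EC 0.45 ± 0.39 and in immune cells 0.32 ± 0.39, none of them called.

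Mme in PT cells was lower in males, with 33.6 ± 17.0 CPM in females and 19.8 ± 7.35 in males (n = 8 each). With the batch term the log2 difference was -0.92 ± 0.26 (edgeR, adjusted p = 0.0181). Control females held 25.85, 59.9, 31.9 and 58.9 CPM and DN females 18.7, 33.2, 15.0 and 25.7 CPM, with overlap. Control males held 8.40, 27.9, 15.3 and 24.3 CPM and DN males 24.6, 23.2, 10.6 and 24.5 CPM. The call was lost without control female replicate 2 at 6 weeks or at 12 weeks (edgeR, adjusted p = 0.139 and 0.0877). The difference between DN and control was -0.94 ± 0.33 in females and 0.08 ± 0.32 in males, neither called (edgeR, adjusted p = 0.753 and 1).

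No call was made for the leading classes of Agtr1a, Enpep and Mme. Agtr1a in mesangial cells was at 712 ± 154 CPM in control and 663 ± 89.5 in DN at 6 weeks, and at 796 ± 222 and 857 ± 213 at 12 weeks (log2 differences -0.06 ± 0.20 and 0.17 ± 0.20, edgeR, adjusted p = 0.999 and 0.907). For Enpep in podocytes the log2 differences were -0.05 ± 0.26 and 0.05 ± 0.24 (edgeR, adjusted p = 0.9999 and 0.9996). For Mme in IC-A cells they were 0.10 ± 0.21 and -0.05 ± 0.21 (edgeR, adjusted p = 0.9999 and 1).

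In 2 further pairs the block made a call. Atp6ap2 in connecting tubule cells at 12 weeks was at 201, 193, 213 and 182 CPM in control and 259.9, 283, 259 and 293 CPM in DN, with no overlap. The log2 difference was 0.42 ± 0.16 (edgeR, adjusted p = 0.367, and 0.00826 with the block). Mme in aLOH cells at 12 weeks was at 133, 195, 156 and 209 CPM in control and 77.5, 130, 114 and 160.5 CPM in DN, which overlapped. The log2 difference was -0.52 ± 0.21 (edgeR, adjusted p = 0.799, and 0.0157 with the block).

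Age gave no call among the members. Of 61 pairs of member and class, 0 passed between 12 and 6 weeks in control by edgeR (3 at an unadjusted p under 0.05, where 0.000682% of all pairs were called). In DN 0 passed (4 unadjusted, background 0%), and for the difference between the genotype effects 0 (1 unadjusted, background 0%). DESeq2 gave 0 in each, with 5, 6 and 2 pairs at an unadjusted p under 0.05. For Agt in PT cells of controls the log2 difference between 12 and 6 weeks was -0.91 ± 0.28 (edgeR, unadjusted p = 0.00523, adjusted p = 1).

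The other genes of the pathway formed a list of 18, which holds further angiotensin-processing peptidases, the receptor gene Mas1 and the receptor-binding protein gene Agtrap. Of these, 12 passed the filter in at least 1 class. Between genotypes, 0 of 135 pairs at 6 weeks and 0 of 132 at 12 weeks were called by edgeR (10 and 10 at an unadjusted p under 0.05) or by DESeq2 (7 and 9). With the replicate block 3 fell at 6 weeks (background 1.16%), and 4 rose and 2 fell at 12 weeks (background 3.05%). At 6 weeks these were Mas1 in PT cells, at a log2 difference of -2.985 (adjusted p = 0.0309), and Tmem27 in IC-A cells, at -0.73 (adjusted p = 0.008135), and in mesangial cells, at -1.01 (adjusted p = 0.0221), by edgeR. At 12 weeks Lnpep rose in mesangial cells, by 0.37 (adjusted p = 0.0370), and in podocytes, by 0.69 (adjusted p = 0.00600), as did Prcp, a carboxypeptidase, in IC-B cells, by 0.49 (adjusted p = 0.00762), and Tmem27 in PC, by 0.63 (adjusted p = 0.0467) (edgeR). Tmem27 was lower in mesangial cells, at -1.01 (adjusted p = 0.00182), and in the smooth muscle and renin class, at -1.72 (adjusted p = 0.00334) (edgeR). Between the sexes 4 pairs were higher and 1 lower in males, of 141, all in PT cells, where 12 genes of the list were tested and 16.3% of all genes were higher and 11.6% lower. Mas1, a receptor for an angiotensin fragment, was higher in males by 4.51 ± 0.71 on the log2 scale (edgeR, adjusted p = 7.28e-04), at the very low levels of 0.136 ± 0.195 CPM in females and 1.38 ± 1.08 in males. In the fits by sex, Mas1 in males stood at -2.51 ± 0.56 between DN and control (edgeR, adjusted p = 0.0489), a call lost in 12 of 16 fits without 1 library (adjusted p up to 0.276), and in females at 1.40 ± 1.72 (adjusted p = 0.9998). Agtrap, Nln and Rnpep were higher in males by 0.66, 0.38 and 0.25, and Lnpep stood at -0.34 (edgeR, adjusted p = 0.0283, 0.0228, 0.0442 and 0.0496).

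The regulators of renin release and renin cells formed a list of 15, all tested. At 6 weeks 0 of 119 pairs were called by edgeR or DESeq2 (7 and 7 at an unadjusted p under 0.05), and at 12 weeks 1 rose and 2 fell of 117 (background 0.356%). Ptger2, a prostaglandin receptor, fell in mesangial cells from 24.9 ± 4.98 CPM to 6.515 ± 3.605 (n = 4 each, log2 difference -2.06 ± 0.38, edgeR, adjusted p = 0.00502), and this call held without each library in turn. Npr1, the receptor of atrial natriuretic peptide, rose in mesangial cells from 82.3 ± 11.7 CPM to 146 ± 5.94 (0.89 ± 0.22, edgeR, adjusted p = 0.0413). Ptger4, another prostaglandin receptor, fell in PC from 15.9 ± 2.17 CPM to 8.52 ± 1.535 (-0.82 ± 0.17, edgeR, adjusted p = 0.0471). The calls of Npr1 and Ptger4 were lost in 10 and 13 of 16 fits without 1 library, with adjusted p up to 0.172 and 0.227. With the replicate block 1 pair rose and 2 fell at 6 weeks (background 1.16%), and 7 rose and 4 fell at 12 weeks (background 3.05%). At 6 weeks Rgs5, which is also a marker of the class, rose in the smooth muscle and renin class, by 0.51 (adjusted p = 0.00563), and the log2 differences of Adcy6 in mesangial cells and Ptger4 in podocytes were -0.49 (adjusted p = 0.0210) and -0.84 (adjusted p = 0.0357), by edgeR. At 12 weeks the pairs added by the block were Rgs5 and Gja5 in the smooth muscle and renin class, at 0.42 (adjusted p = 0.0158) and 1.55 (adjusted p = 0.00141), and the same genes in mesangial cells, at 1.115 (adjusted p = 0.00154) and 0.43 (adjusted p = 0.0280) (edgeR). Also added were Npr1 in glomerular EC, at 0.51 (adjusted p = 0.0434), Ptgs2, the inducible cyclooxygenase, in aLOH cells, at 3.44 (adjusted p = 0.003045), Creb1 in mesangial cells, at -0.62 (adjusted p = 0.00884), and Rbpj in podocytes, at -1.03 (adjusted p = 0.00704) (edgeR). Between the sexes Adcy6 and Crebbp in PT cells and Npr1 in IC-B cells were lower in males, by log2 differences of -0.59, -0.32 and -1.07 (edgeR, adjusted p = 0.0171, 0.0283 and 0.00341).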

How the data were processed

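Single-cell RNA-seq (10x Genomics 3′) was deposited for 16 libraries, 1 per mouse. Per the labels, the authors made the UMI counts per gene and barcode with Cell Ranger 3.0.2 on mm10, and the deposited counts are not normalized. Kit versions 2 and 3 are both named, and which library used which, and the strand setting, are not given in the sources used here. Barcodes entered with between 200 and 7000 genes and a mitochondrial share of 50% or less. Of these cells, 7792 (8.251%) were left out as doublets of 2 lineages, and 991 non-tubular cells over 20% mitochondrial UMIs were left out. Scrublet marked 2122 cells (2.247%), and in 4 libraries its threshold marked under 0.5%. Cells were clustered without the 9 genes (scanpy 1.11.5, leidenalg 0.10.2, resolution 1.0), and classes were named from markers. The 9 genes and all lists were chosen with earlier results of these data known.

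Counts were summed per library and class with at least 10 cells and tested with edgeR 4.0.16 (quasi-likelihood, limma 3.58.1, R 4.3.3), DESeq2 1.42.0 being an alternative. Fits of males against females over both genotypes held a term for the batch. The main fits of genotype and age did not. Adjusted p is Benjamini-Hochberg over all genes of a class, with a threshold of 0.05. Single values were compared by exact permutation (scipy 1.17.1), or with 100000 draws for correlations over 12 libraries. The text names all 9 genes, list genes called in a comparison, and the 3 genes most like each member among those of at least 10 CPM in 1 class. Of the markers and of the genes this rule names, a few are not reported here. Segment genes and class-leading genes were named after their values were seen.

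Same-numbered libraries of a sex and age deviated together in every class tested (correlations over genes of 0.108 to 0.792). Replicate numbers were therefore taken as pairs, and blocked fits are given where they change a call. The sample titles do not state such pairs. The classes of a sex and age share the same libraries, and in females the replicate number also divides the batches. Counts of pairs and blocked calls rest on this choice. Libraries shared 7 to 55 barcodes within a barcode list and 0 to 3 across lists. Replicates differed beyond sampling noise (chi-square per degree of freedom 191.5 to 304.8). On simulated data for the smooth muscle and renin class at 12 weeks (8417 genes), 50% of genes changed by 2-fold and 96% of those changed by 4-fold were recovered. Fits by sex, the class without its high-Ren1 sub-cluster, the sub-cluster at 5 or more cells per library and the shares of the class by Ren1 level were added after seeing the data. Columns not mapped to a sample numbered 0.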

Additional observations from a re-analysis of the deposited data

Results flagged for a closer look

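In 10 of 82 sets of 4 libraries of 1 genotype and age, 1 library lay far from the others for a member, where chance gives about 1 in 20. Ren1 in the smooth muscle and renin class was 27280 CPM in control female replicate 1 at 6 weeks against 5716 to 8891 in the other 3. Outside the high-Ren1 sub-cluster it was 3328 CPM in control male replicate 2 at 6 weeks against 1930 to 2075. In mesangial cells Ren1 was 243.8 CPM in control male replicate 2 at 6 weeks against 1.08 to 33.94, 54.73 CPM in control male replicate 1 at 12 weeks against 5.963 to 10.67, and 4662 CPM in DN female replicate 2 at 6 weeks against 116.7 to 323.6.

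Agt in PT cells was 16.11 CPM in control female replicate 2 at 6 weeks against 8.914 to 9.882, and 64.66 CPM in its DN pair against 23.83 to 29.67. Agtr1a in the smooth muscle and renin class was 239.9 CPM in control female replicate 1 at 12 weeks against 86.62 to 106.2. Agtr1b in that class was listed at 0 CPM in control female replicate 1 at 6 weeks against 5.209 to 5.689. This library of the shallow smaller batch held 44 cells of the class, so a count of 0 there does not show a lower level. Mme in podocytes was 195.7 CPM in control female replicate 1 at 12 weeks against 559.1 to 623.2.

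The effect of DN on Ace in PT cells differed between males and females by -1.138 on the log2 scale in the edgeR fit with the replicate block (adjusted p = 0.0289), and was not called without the block.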

How the results depend on the processing

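Over 43 results and 992 alternatives, 901 stayed the same, 46 lost a call, 28 gained one, 16 moved a count by over 1.5 times and 1 reversed. For a test, the same means the same direction and side of the threshold. For a count it means within 1.5 times, and for other values within their error. The reversed one was Ace in PT cells of females, DN minus control, at 0.4455 without control female replicate 2 at 6 weeks, within a range of -0.801 to 0.4455 over all fits that left out 1 library. With no filter on low counts the member calls were 7 at 6 weeks, 7 at 12 weeks, 1 for their difference, 2 and 4 for age in control and DN, and 7 for sex. With the replicate block they were 4 at 6 weeks and 7 at 12 weeks, and the pairs it added are given with their genes above. At 12 weeks DESeq2, a batch term and the larger batch alone gave 2 each. When cells with Ren1 at 1% or more of UMIs replaced the sub-cluster, the difference in share of kept cells was 0.2583 percentage points (p = 0.00617, exact permutation test). Ren1 itself sets this line, so the share is not a count of renin cells apart from their Ren1 level. Leaving out 1 library gave 0 to 1 member calls at 6 weeks and 1 to 3 for sex. The cause of these changes was not tested. The block could not be fitted for age and sex, and the sub-cluster, with at most 25 cells in a library, could not be fitted at 30 or more cells. Fits of the sub-cluster with Scrublet calls or at a finer resolution were not run.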
